A study of Mus musculus with 16 samples.

Results

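Peroxisome genes were followed in the liver and the eWAT of male C57BL/6J mice sired by obese or by control males. The gene set lists 29 peroxisome genes by symbol: 13 Pex genes, which encode peroxins, and 16 genes of peroxisomal membrane proteins and enzymes. It holds every array probe set annotated with one of these symbols, and 28 of the 29 were found among the 19505 genes of the array. The remaining gene, Paox, was not analysed here. The study compared offspring at 14 weeks of age in 4 groups of 4 samples, numbered within each group, and the labels do not say whether a liver and an eWAT sample came from the same mouse. The F1 groups, one for each tissue, were sons of control females and of males fed a high-fat diet with 45% lipids for 12 weeks from 8 weeks of age. The CT groups were sons of control females and of males fed chow. Nothing in the labels describes a diet, drug or genetic change given to the sons themselves. eWAT is the labels' term, in common use for epididymal white adipose tissue. The labels call the samples biological replicates without giving fathers or litters. Every p-value therefore rests on the scatter among samples and cannot account for sons that share a father. The main comparisons of a pair of groups used 8 samples each, and the difference of effects between tissues used all 16.

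Peroxisomes are small organelles bounded by 1 membrane, and they import their enzymes already folded from the cytosol. Peroxins build the membrane, carry matrix proteins across it, recycle the carriers and divide the organelle. Inside, oxidases shorten very-long-chain and branched fatty acids and the side chains of bile acid precursors, and the hydrogen peroxide that they release is broken down by catalase. Other peroxisomal enzymes start the synthesis of ether lipids such as plasmalogens. In liver, peroxisomes take part in bile acid synthesis and fatty acid oxidation, and in rodents the nuclear receptor PPARα induces many of their genes. In adipocytes, peroxisomes supply ether lipids and oxidise very-long-chain fatty acids.

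All values below are the deposited log2 signals, in which a difference of 1 is a doubling. No member passed an adjusted p of 0.05 between F1 and CT, in liver (0 of 28, against 0.156% of all genes) or in eWAT (0 of 28, against 0% of all genes). In liver, 17 members had a lower mean in F1 (50% of all genes did) and 10 a higher one (49.5% of all genes), and catalase could not be compared. In eWAT, 24 members had a higher mean in F1 (49.4% of all genes) and 4 a lower one (50.2% of all genes). The same genes differed far more between the tissues. In CT mice 25 of 28 members passed the adjusted p (75.4% of all genes), 15 of them higher in liver than in eWAT (17.9% of all genes) and 10 lower (57.5% of all genes). Those differences ran from 9.87 for Acox2 to -8.56 for Abcd2. The deposited values were distributed differently in the tissues, so several of these calls depend on the scale. With the libraries quantile normalized together, the calls of Pex3, Pex19, Pex13, Acox3 and Agps as lower were lost. That of Cat as higher was lost too, Pex16 changed direction, and Pex14 and Pex2 passed as higher in liver. Dao, among those called lower, lay near the untested level in liver.

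The gene promoters below show the regulatory sequence of 5 members around their annotated start, as listed by RefSeq for GRCm38.p6. Each window runs from 250 bases before to 50 bases after the start and reads along the gene's own strand, 5′ to 3′. Pex11a is shown because its F1 and CT values in eWAT did not overlap. Phyh, Scp2 and Acox2 are shown as oxidation genes that were far higher in liver, and Gnpat as an ether lipid gene that was far lower in liver. Capitals mark AGGTCA, the half-site bound by nuclear receptors of the PPAR and RXR type, and GGGCGG, the GC box of Sp-family factors, or their reverse complements.
Pex11a (chr7:79743082-79743381, minus strand): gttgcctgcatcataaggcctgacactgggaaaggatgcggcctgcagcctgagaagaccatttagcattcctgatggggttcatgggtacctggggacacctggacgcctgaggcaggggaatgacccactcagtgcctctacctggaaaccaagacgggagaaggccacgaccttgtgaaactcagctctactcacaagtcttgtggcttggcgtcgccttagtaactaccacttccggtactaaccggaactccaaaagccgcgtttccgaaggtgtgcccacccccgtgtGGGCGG
Phyh (chr2:4918746-4919045, plus strand): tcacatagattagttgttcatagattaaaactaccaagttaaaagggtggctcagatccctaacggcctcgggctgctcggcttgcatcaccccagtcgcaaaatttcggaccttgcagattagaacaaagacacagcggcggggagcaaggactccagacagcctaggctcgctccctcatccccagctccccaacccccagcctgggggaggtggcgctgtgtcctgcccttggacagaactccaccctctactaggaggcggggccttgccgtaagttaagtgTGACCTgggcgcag
Scp2 (chr4:108118498-108118797, minus strand): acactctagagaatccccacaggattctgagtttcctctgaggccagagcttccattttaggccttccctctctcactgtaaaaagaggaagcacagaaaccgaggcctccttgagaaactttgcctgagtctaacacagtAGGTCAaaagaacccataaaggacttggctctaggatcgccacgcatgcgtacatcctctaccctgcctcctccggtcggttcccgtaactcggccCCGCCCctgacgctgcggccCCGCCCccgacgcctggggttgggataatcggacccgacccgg
Acox2 (chr14:8258970-8259269, minus strand): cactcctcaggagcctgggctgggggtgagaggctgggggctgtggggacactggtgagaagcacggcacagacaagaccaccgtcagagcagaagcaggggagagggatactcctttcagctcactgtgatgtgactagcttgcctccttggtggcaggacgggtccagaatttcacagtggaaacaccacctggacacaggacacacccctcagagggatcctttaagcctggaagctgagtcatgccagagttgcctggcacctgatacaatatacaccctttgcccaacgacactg
Gnpat (chr8:124862783-124863082, plus strand): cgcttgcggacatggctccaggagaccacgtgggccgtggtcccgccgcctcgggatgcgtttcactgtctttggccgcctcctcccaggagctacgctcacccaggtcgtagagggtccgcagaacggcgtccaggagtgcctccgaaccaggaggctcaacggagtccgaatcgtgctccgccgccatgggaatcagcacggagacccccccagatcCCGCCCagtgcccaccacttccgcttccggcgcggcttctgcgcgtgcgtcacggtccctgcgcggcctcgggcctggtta

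Windows were found for 24 of the 28 members, all but Abcd2, Pex2, Pex19 and Pxmp2, and the first listed window was used for a gene with several. The values over all windows counted every window of such genes, so the units differ. AGGTCA, searched on both strands, was in the windows of Phyh, Cat, Scp2 and Pex11g, which are 4 of 24, and in 16.3% of all 32851 promoter windows. GGGCGG, on both strands, was in 17 of 24 windows against 35.7% of all windows. TATAAA, on both strands, was in those of Pex16, Pex14 and Pex26, which are 3 of 24, against 13.6%. The repeat AGGTCANAGGTCA, which contains AGGTCA, was in none of the 24 windows on either strand and in 0.0396% of all windows. With up to 2 mismatches it was in the window of Cat alone, against 3.86% of all windows. The members' windows held a median of 15 CpG dinucleotides, from 4 in Acox2 to 45 in Abcd3, against a median of 7 over all windows. These are matches of letters and not measured binding sites.

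Tissue markers fitted the labels: a list of 8 hepatocyte genes had a median of 19.93 in all 8 liver libraries, and 7 measured adipocyte genes had medians of 17.76 to 18.03 in the eWAT libraries. Several libraries also carried transcripts of another tissue. The hepatocyte list, 8 of 8 genes measured, had medians of 12.75, 15.32, 12.29 and 16.16 in eWAT of F1 mice 1 to 4, against 9.38, 8.18, 14.79 and 14.76 in eWAT of CT mice 1 to 4. Its best known gene, albumin (Alb), had values of 16.95, 18.77, 16.65 and 19.07 in eWAT of F1 mice, against 14.16, 12.43, 18.91 and 18.55 in eWAT of CT mice. F1 mice 2 and 4 and CT mice 3 and 4 stood more than 1 above the median of the other eWAT libraries and are named the 4 hepatocyte-rich libraries here. Among the other 4 libraries, both F1 mice still lay above both CT mice. In liver, 8 measured genes of the exocrine pancreas had a median of 12.56 in F1 mouse 4, against 4.10 to 5.33 in the other 7 libraries. The skeletal muscle list reached 5.66 and 5.64 in eWAT of CT mice 1 and 4, against 3.58 to 4.29 in the other 6. The library of eWAT F1 mouse 1 held transcripts of the seminal vesicle, which the median of the male tract list did not show. Svs2, a seminal vesicle secretory protein, gave 16.22, 2.91, 2.73 and 2.97 in eWAT of F1 mice, against 2.84, 3.35, 4.88 and 2.47 in eWAT of CT mice. Svs4, another such protein, gave 14.01, 3.93, 4.19 and 4.55 in eWAT of F1 mice, against 3.72, 3.84, 3.58 and 3.36 in eWAT of CT mice. The other 8 male tract genes measured stayed at or below 4.42 in that library. It is not one of the 4 hepatocyte-rich libraries, so values without those 4 still include it. None of these markers was listed at 0. Fewer cells of a type and less RNA per cell cannot be told apart in such bulk tissue.

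F1 and CT livers were compared over 14772 genes, of which 23 (0.156%) passed an adjusted p of 0.05 in limma and 0 of the 28 members did. At an unadjusted p under 0.05, 1 member passed, Pxmp2, which was higher in F1, while 4.46% of all genes passed in that direction. The members' median difference was -0.12, against 0.00 over all genes, and it was -0.05 without the F1 liver that held pancreatic transcripts. Without that liver 3 members passed the unadjusted p, Pxmp2 as higher in F1 and Pex16 and Pex10 as lower. The latter stood at -0.40 ± 0.15 (SE) and -0.50 ± 0.21 (SE). The share of all genes passing was not counted in that setting, so these 3 have no background beside them. Of the 13 Pex genes, 11 lay below 0 (50% of all genes did), with a median of -0.19, and 0 passed the unadjusted p. Of the other 15 members, which include the saturated Cat, 6 lay below 0, with a median of 0.00. No member had F1 and CT values that did not overlap in liver, where 5.36% of all genes did.

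In eWAT, 0 of 14775 genes (0%) passed an adjusted p of 0.05 in limma, and so 0 members did. At an unadjusted p under 0.05, 1477 genes (10%) passed. The 5 members among them, Pex11a, Dao, Phyh, Pex26 and Pxmp4, were all higher in F1, a direction in which 4.97% of all genes passed. The members' median difference was 0.19, against 0.00 over all genes. With the 4 hepatocyte-rich libraries left out, 23 of 28 lay above 0 and only Pex11a passed the unadjusted p. With the hepatocyte marker level as a covariate, 24 lay above 0, and Pex11a was 1 of 2 that passed. Without eWAT F1 mouse 1, the library with seminal vesicle transcripts, 19 of 28 lay above 0, with a median of 0.12. Pex11a, Phyh and Hao1 passed the unadjusted p there, while Dao, Pex26 and Pxmp4 did not. Shares of all genes were not counted in these settings, so the members' counts have no background beside them. The median over all genes was -0.005 without the 4 libraries, 0.011 with the covariate and -0.010 without F1 mouse 1. The part of seminal vesicle transcripts in the eWAT differences was not tested beyond the values without this library. Pex11a was also the only member whose F1 and CT values did not overlap in eWAT, where the F1 values were all above the CT values for 2.91% of all genes.

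**Figure D1:**
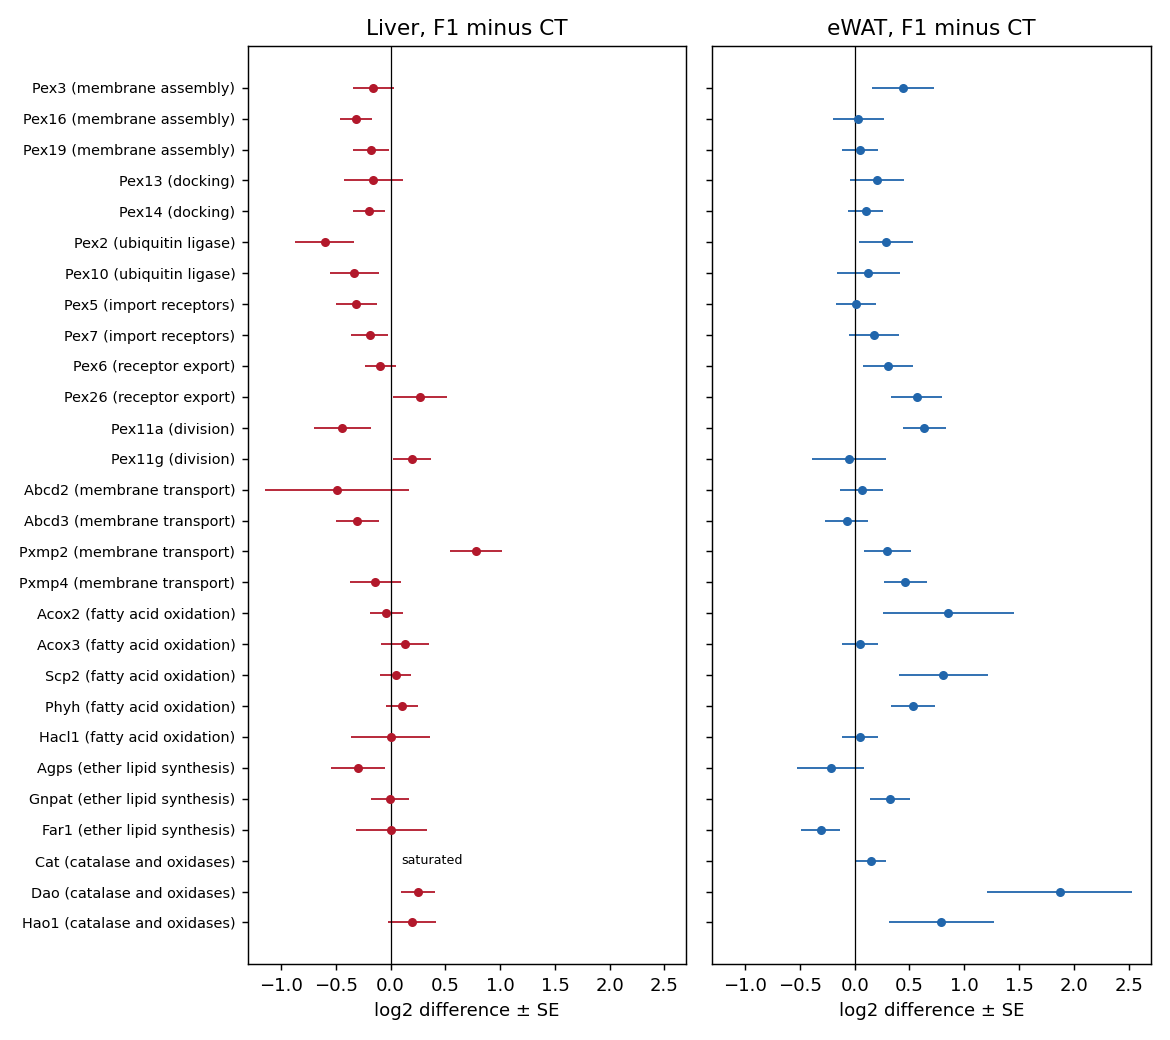
Difference between F1 and CT in log2 signal for each member, grouped by role, in liver (left) and eWAT (right). Points are differences of group means (n = 4 each) and bars are their standard errors from limma. Liver points scatter on both sides of 0 with most Pex genes to the left, while 24 of 28 eWAT points lie to the right. No liver point is drawn for Cat, whose liver values were saturated.

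Pex3, Pex16 and Pex19 insert proteins into the peroxisomal membrane: Pex19 carries new membrane proteins through the cytosol and docks on Pex3, which Pex16 helps to place. Pex3 had values of 10.33, 10.11, 10.80 and 10.00 in F1 livers, against 10.50, 10.33, 10.48 and 10.56 in CT livers. Pex3 in eWAT gave 12.72, 12.66, 12.20 and 12.39 in F1 mice, against 11.85, 12.92, 11.74 and 11.71 in CT mice. All F1 eWAT values exceeded 3 of the CT values, and CT mouse 2 had the highest value of the 8. Pex16 had values of 11.86, 11.86, 12.01 and 12.23 in F1 livers, against 12.29, 12.33, 12.20 and 12.40 in CT livers. The F1 livers were the lower ones except for F1 mouse 4, which lay just above the lowest CT liver. The Pex16 difference of -0.32 ± 0.15 (SE) had an adjusted p of 0.559. Pex16 in eWAT gave 13.36, 12.43, 12.75 and 12.49 in F1 mice, against 12.82, 13.00, 12.56 and 12.52 in CT mice, with the highest value in F1 mouse 1 and the lowest in F1 mouse 2. Its eWAT difference was 0.03 ± 0.23 (SE), and -0.17 ± 0.19 (SE) without F1 mouse 1, whose library held seminal vesicle transcripts. Pex19 had values of 11.30, 11.14, 11.65 and 11.22 in F1 livers, against 11.37, 11.50, 11.72 and 11.43 in CT livers, and 3 of the 4 F1 livers lay below every CT liver. Pex19 in eWAT gave 12.56, 12.17, 12.44 and 12.48 in F1 mice, against 12.55, 12.13, 12.51 and 12.26 in CT mice, ranges that nearly coincide.

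Pex13 and Pex14 form the docking site where loaded import receptors reach the membrane. Pex13 had values of 9.91, 10.09, 9.81 and 9.89 in F1 livers, against 10.33, 9.18, 10.42 and 10.40 in CT livers. CT mouse 2 was lowest of all 8 livers, while the other CT livers were above all F1 livers. Pex13 in eWAT gave 11.81, 11.52, 11.36 and 11.68 in F1 mice, against 11.67, 11.91, 10.92 and 11.05 in CT mice, where CT mice 3 and 4 were the low ones. Pex14 had values of 11.75, 11.73, 11.78 and 11.91 in F1 livers, against 11.92, 11.85, 11.94 and 12.25 in CT livers, and its F1 difference was -0.20 ± 0.15 (SE). Pex14 in eWAT gave 11.88, 11.64, 12.00 and 12.03 in F1 mice, against 11.95, 11.77, 11.88 and 11.55 in CT mice, with overlapping groups.

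Pex2 and Pex10 belong to the ring-finger ubiquitin ligase that marks import receptors for recycling. Pex2 had values of 8.39, 7.33, 8.14 and 7.64 in F1 livers, against 8.54, 7.93, 8.86 and 8.57 in CT livers. F1 livers 2 and 4 lay below all CT livers, and the other pair lay within the CT range. The difference was -0.60 ± 0.27 (SE), with an adjusted p of 0.55. Pex2 in eWAT gave 8.57, 8.00, 8.10 and 7.95 in F1 mice, against 7.73, 7.98, 8.42 and 7.35 in CT mice, a difference of 0.29 ± 0.25 (SE) in the other direction. Pex10 had values of 4.79, 4.64, 4.76 and 5.39 in F1 livers, against 4.78, 5.22, 5.31 and 5.60 in CT livers. Pex10 in eWAT gave 6.47, 5.31, 6.20 and 5.53 in F1 mice, against 5.96, 5.33, 5.62 and 6.10 in CT mice. Both tissues showed F1 and CT ranges that overlapped for Pex10.

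Pex5 and Pex7 are the soluble receptors that recognise the C-terminal and the N-terminal import signals of matrix proteins. Pex5 had values of 10.61, 11.12, 10.93 and 10.89 in F1 livers, against 11.07, 11.53, 11.35 and 10.85 in CT livers, and F1 mouse 1 was the lowest. Pex5 in eWAT gave 10.30, 9.99, 9.93 and 9.62 in F1 mice, against 10.10, 10.08, 9.79 and 9.82 in CT mice. The Pex5 difference was -0.31 ± 0.19 (SE) in liver and 0.01 ± 0.18 (SE) in eWAT. Pex7 had values of 9.54, 9.56, 9.48 and 9.78 in F1 livers, against 9.76, 9.70, 10.14 and 9.52 in CT livers. Pex7 in eWAT gave 8.79, 7.96, 8.52 and 7.99 in F1 mice, against 8.23, 8.32, 8.23 and 7.78 in CT mice. F1 and CT ranges of Pex7 overlapped in both tissues, with CT mouse 3 highest in liver and F1 mouse 1 highest in eWAT.

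Pex6 is an ATPase that pulls the used receptors out of the membrane, and Pex26 anchors it there. Pex6 had values of 7.91, 8.24, 8.09 and 7.90 in F1 livers, against 8.13, 8.09, 8.10 and 8.20 in CT livers, with all CT livers inside the F1 range. Pex6 in eWAT gave 6.95, 7.24, 7.65 and 6.69 in F1 mice, against 6.84, 6.58, 7.14 and 6.74 in CT mice. F1 mice 2 and 3 had the highest eWAT values of Pex6. Pex26 had values of 7.03, 7.76, 7.19 and 7.90 in F1 livers, against 7.51, 7.46, 7.09 and 6.75 in CT livers. Pex26 in eWAT gave 6.21, 6.11, 6.55 and 6.34 in F1 mice, against 6.17, 5.12, 5.91 and 5.75 in CT mice. Only CT mouse 1 reached the F1 range in eWAT, and CT mouse 2 was the lowest. That difference was 0.57 ± 0.23 (SE), with an adjusted p of 0.467, 0.74 ± 0.40 (SE) without the 4 hepatocyte-rich libraries and 0.60 ± 0.26 (SE) without F1 mouse 1.

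Pex11a and Pex11g shape and divide peroxisomes, and Pex11a is inducible by PPARα ligands in rodents. Pex11a in eWAT gave 12.43, 11.87, 11.94 and 11.60 in F1 mice, against 11.29, 11.46, 11.41 and 11.14 in CT mice, so that the lowest F1 value lay above the highest CT value. Group means were 11.96 ± 0.35 in F1 eWAT and 11.33 ± 0.14 in CT eWAT (SD, n = 4 each). The difference was 0.64 ± 0.20 (SE), a 1.55-fold higher signal in F1, with an adjusted p of 0.389. It was 0.81 ± 0.28 (SE) without the 4 hepatocyte-rich libraries and 0.74 ± 0.21 (SE) with the hepatocyte level as a covariate. Without F1 mouse 1, which had the highest Pex11a value and the seminal vesicle transcripts, it was 0.48 ± 0.17 (SE), and the remaining F1 values still lay above all CT values. In liver the direction was opposite, with values of 11.81, 11.98, 12.75 and 12.78 in F1 livers, against 12.39, 13.10, 12.87 and 12.72 in CT livers. F1 livers 1 and 2 were below all CT livers, and F1 livers 3 and 4 lay within the CT range. The liver difference was -0.44 ± 0.26 (SE), with an adjusted p of 0.665. Pex11g had values of 8.90, 8.63, 8.78 and 8.98 in F1 livers, against 8.54, 8.29, 8.81 and 8.88 in CT livers. Pex11g in eWAT gave 6.42, 6.43, 6.61 and 5.12 in F1 mice, against 6.12, 5.93, 6.01 and 6.72 in CT mice, and F1 mouse 4 stood well below the other 7.

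**Figure D2:**
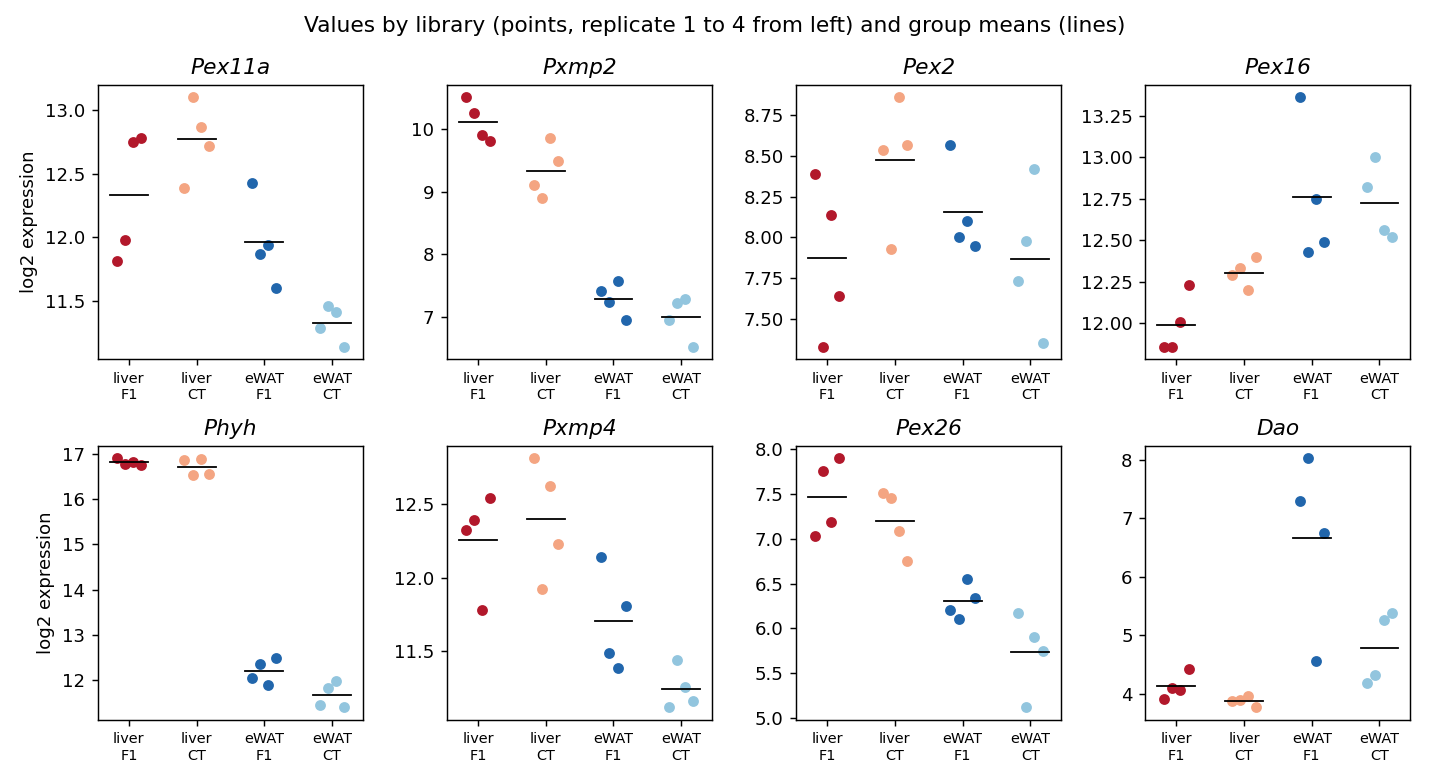
Log2 signal of Pex11a, Pxmp2, Pex2, Pex16, Phyh, Pxmp4, Pex26 and Dao in every library of the 4 groups; points are mice and lines are group means (n = 4 each). Pex11a in eWAT is the only panel pair in which the F1 points (11.60 to 12.43) lie wholly above the CT points (11.14 to 11.46), and Dao in eWAT has 3 high F1 points.

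Abcd2 and Abcd3 are half-transporters that bring acyl-CoAs into the peroxisome, Abcd2 for very-long-chain and Abcd3 for branched and bile acid substrates. Abcd2 had values of 10.83, 8.58, 8.09 and 7.21 in F1 livers, against 8.73, 9.55, 9.82 and 8.56 in CT livers. F1 livers held both the highest and the lowest value, and the difference of -0.49 ± 0.66 (SE) had the largest standard error of any member in liver. Abcd2 in eWAT gave 18.12, 17.87, 17.75 and 17.39 in F1 mice, against 17.91, 17.74, 17.83 and 17.40 in CT mice, a difference of 0.06 ± 0.20 (SE). Abcd3 had values of 15.78, 16.08, 16.13 and 16.16 in F1 livers, against 16.45, 16.53, 16.55 and 15.83 in CT livers. The 3 highest livers were CT mice, and CT mouse 4 was near the lowest. Abcd3 in eWAT gave 12.06, 11.81, 11.65 and 12.42 in F1 mice, against 11.94, 12.20, 12.22 and 11.87 in CT mice, with F1 mice at both ends of the range.

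Pxmp2, a channel-forming protein of the peroxisomal membrane, was the member with the smallest p in liver. Its values were 10.50, 10.25, 9.90 and 9.80 in F1 livers, against 9.10, 8.89, 9.85 and 9.49 in CT livers. The F1 livers were the higher ones, apart from F1 mouse 4, which lay just below the highest CT liver. Means were 10.11 ± 0.32 in F1 livers and 9.33 ± 0.43 in CT livers (SD, n = 4 each), a difference of 0.78 ± 0.24 (SE) or 1.72-fold, with an adjusted p of 0.351. Without the F1 liver that held pancreatic transcripts it was 0.88 ± 0.26 (SE). Pxmp2 in eWAT gave 7.41, 7.24, 7.58 and 6.95 in F1 mice, against 6.95, 7.22, 7.29 and 6.53 in CT mice, a difference of 0.30 ± 0.22 (SE). Pxmp4, another peroxisomal membrane protein, had values of 12.32, 12.39, 11.78 and 12.54 in F1 livers, against 12.81, 11.92, 12.62 and 12.23 in CT livers. Pxmp4 in eWAT gave 12.14, 11.49, 11.39 and 11.81 in F1 mice, against 11.12, 11.44, 11.26 and 11.16 in CT mice. In eWAT 3 of the 4 F1 values lay above all CT values, and F1 mouse 3 fell inside the CT range. The eWAT difference of Pxmp4 was 0.46 ± 0.19 (SE), with an adjusted p of 0.476, and 0.32 ± 0.18 (SE) without F1 mouse 1, which had the highest value.

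Acox2, Acox3, Scp2, Phyh and Hacl1 oxidise branched fatty acids. Acox2 and Acox3 are acyl-CoA oxidases, and Acox2 also acts on bile acid precursors. Acox2 had values of 15.23, 14.93, 15.01 and 15.10 in F1 livers, against 15.15, 15.06, 15.30 and 14.91 in CT livers, with both groups inside a narrow band. Acox2 in eWAT gave 5.17, 6.33, 5.10 and 7.78 in F1 mice, against 4.39, 5.16, 6.20 and 5.21 in CT mice. The 3 highest eWAT values, F1 mice 4 and 2 and CT mouse 3, were in libraries with high hepatocyte markers. Its difference in eWAT was 0.86 ± 0.60 (SE) and 0.26 ± 0.51 (SE) with the hepatocyte level as a covariate. Acox3 had values of 9.44, 10.28, 9.98 and 10.31 in F1 livers, against 10.10, 9.55, 9.84 and 9.99 in CT livers. Acox3 in eWAT gave 11.35, 11.05, 11.23 and 11.53 in F1 mice, against 11.31, 11.06, 11.39 and 11.20 in CT mice. The Acox3 difference was 0.13 ± 0.22 (SE) in liver and 0.05 ± 0.16 (SE) in eWAT.

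Scp2 encodes sterol carrier protein 2 and, from a longer transcript, the thiolase that ends a cycle of branched-chain oxidation. Scp2 had values of 19.47, 19.49, 19.32 and 19.67 in F1 livers, against 19.59, 19.33, 19.39 and 19.45 in CT livers, near the upper end of the scale in all 8. Scp2 in eWAT gave 13.72, 14.19, 13.02 and 14.85 in F1 mice, against 12.82, 12.51, 13.48 and 13.73 in CT mice. F1 mice 4 and 2, whose libraries had the highest hepatocyte markers, had the 2 highest values. The Scp2 difference in eWAT was 0.81 ± 0.40 (SE), 0.71 ± 0.33 (SE) without the 4 hepatocyte-rich libraries, and 0.32 ± 0.26 (SE) with the covariate. Phyh, which hydroxylates phytanoyl-CoA in the first step of alpha-oxidation, had values of 16.90, 16.76, 16.81 and 16.75 in F1 livers, against 16.85, 16.52, 16.89 and 16.54 in CT livers. Phyh in eWAT gave 12.05, 12.35, 11.90 and 12.48 in F1 mice, against 11.45, 11.83, 11.98 and 11.40 in CT mice. F1 mice 1, 2 and 4 had the highest values, and F1 mouse 3 lay below CT mouse 3 alone. That eWAT difference was 0.53 ± 0.20 (SE), with an adjusted p of 0.432, 0.34 ± 0.27 (SE) without the 4 libraries and 0.58 ± 0.22 (SE) without F1 mouse 1. Hacl1, the lyase of alpha-oxidation that follows Phyh, had values of 16.07, 15.66, 14.22 and 14.93 in F1 livers, against 15.51, 15.18, 14.81 and 15.37 in CT livers, with the F1 values spread more widely. Hacl1 in eWAT gave 10.12, 10.03, 9.65 and 10.00 in F1 mice, against 10.01, 10.02, 9.91 and 9.67 in CT mice, a difference of 0.05 ± 0.17 (SE).

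Far1, Gnpat and Agps begin ether lipid synthesis: Far1 supplies the fatty alcohol, Gnpat acylates dihydroxyacetone phosphate and Agps exchanges the acyl for an alkyl chain. Gnpat had values of 10.04, 9.57, 9.81 and 10.06 in F1 livers, against 9.65, 9.74, 10.13 and 9.97 in CT livers. Gnpat in eWAT gave 14.43, 13.97, 13.78 and 13.79 in F1 mice, against 13.78, 13.68, 13.67 and 13.54 in CT mice, where the lowest F1 value tied with the highest CT value. The Gnpat difference in eWAT was 0.33 ± 0.18 (SE), with an adjusted p of 0.574, and 0.18 ± 0.15 (SE) without F1 mouse 1, which had the highest value. Agps had values of 8.24, 7.58, 7.68 and 8.01 in F1 livers, against 7.72, 8.59, 7.83 and 8.56 in CT livers. Agps in eWAT gave 9.77, 9.73, 10.31 and 9.10 in F1 mice, against 10.52, 10.03, 9.32 and 9.92 in CT mice, the groups overlapping in both tissues. Far1 had values of 6.81, 6.61, 5.83 and 5.75 in F1 livers, against 5.79, 6.94, 5.78 and 6.46 in CT livers. Far1 in eWAT gave 11.05, 11.52, 11.40 and 11.68 in F1 mice, against 11.63, 11.76, 11.92 and 11.58 in CT mice. It was among the 4 members with a lower F1 mean in eWAT, with a difference of -0.31 ± 0.18 (SE).

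Cat, catalase, breaks down hydrogen peroxide, and Hao1 and Dao are oxidases that produce it from glycolate and from D-amino acids. Cat was at the ceiling of the scale, 19.93, in all 8 livers, so no F1 difference can be given there. Cat in eWAT gave 19.01, 18.82, 18.73 and 18.85 in F1 mice, against 18.63, 18.68, 18.75 and 18.75 in CT mice. All CT values were exceeded by 3 F1 values, and that of F1 mouse 3 lay among the CT values. Hao1 had values of 14.01, 13.97, 13.66 and 13.52 in F1 livers, against 14.12, 13.18, 13.42 and 13.67 in CT livers, with the CT livers at both ends of the range. Hao1 in eWAT gave 4.50, 6.33, 4.62 and 6.55 in F1 mice, against 4.50, 4.58, 5.28 and 4.48 in CT mice. The values above 5 were those of F1 mice 4 and 2 and CT mouse 3, which are 3 of the 4 hepatocyte-rich libraries. The Hao1 difference in eWAT was 0.79 ± 0.48 (SE) and 0.02 ± 0.24 (SE) without those libraries. For Hao1, Acox2, Scp2 and Phyh, the part of hepatocyte transcripts in the eWAT difference was not tested beyond these values.

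Dao in eWAT gave 7.29, 8.03, 4.56 and 6.75 in F1 mice, against 4.19, 4.32, 5.26 and 5.38 in CT mice. F1 mice 1, 2 and 4 were above all CT mice, and F1 mouse 3 lay inside the CT range. Means were 6.66 ± 1.49 in F1 eWAT and 4.79 ± 0.62 in CT eWAT (SD, n = 4 each), a difference of 1.87 ± 0.66 (SE) with an adjusted p of 0.412, and 1.66 ± 0.73 (SE) without F1 mouse 1. A group of 4 epithelial genes, chosen after their values were seen, had their high values in the same 3 libraries. Pax8, a transcription factor of kidney and other epithelia, gave 5.67, 6.59, 2.71 and 5.30 in eWAT of F1 mice, against 2.19, 3.71, 3.82 and 3.76 in eWAT of CT mice. Cdh16, the kidney cadherin, gave 5.49, 5.96, 3.37 and 5.54 in eWAT of F1 mice, against 3.68, 3.47, 4.21 and 4.15 in eWAT of CT mice. Cldn2, a tight junction protein, gave 6.09, 6.64, 3.02 and 5.11 in eWAT of F1 mice, against 2.79, 3.27, 4.40 and 4.69 in eWAT of CT mice. Mmp7, an epithelial protease, gave 7.53, 8.18, 3.56 and 7.46 in eWAT of F1 mice, against 3.40, 4.03, 5.21 and 4.89 in eWAT of CT mice. The part of such transcripts in the Dao difference was not tested. In liver, Dao had values of 3.92, 4.10, 4.06 and 4.43 in F1 livers, against 3.88, 3.90, 3.96 and 3.77 in CT livers, close to 3.90, the level below which a gene's mean was left untested in liver.

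**Figure D3:**
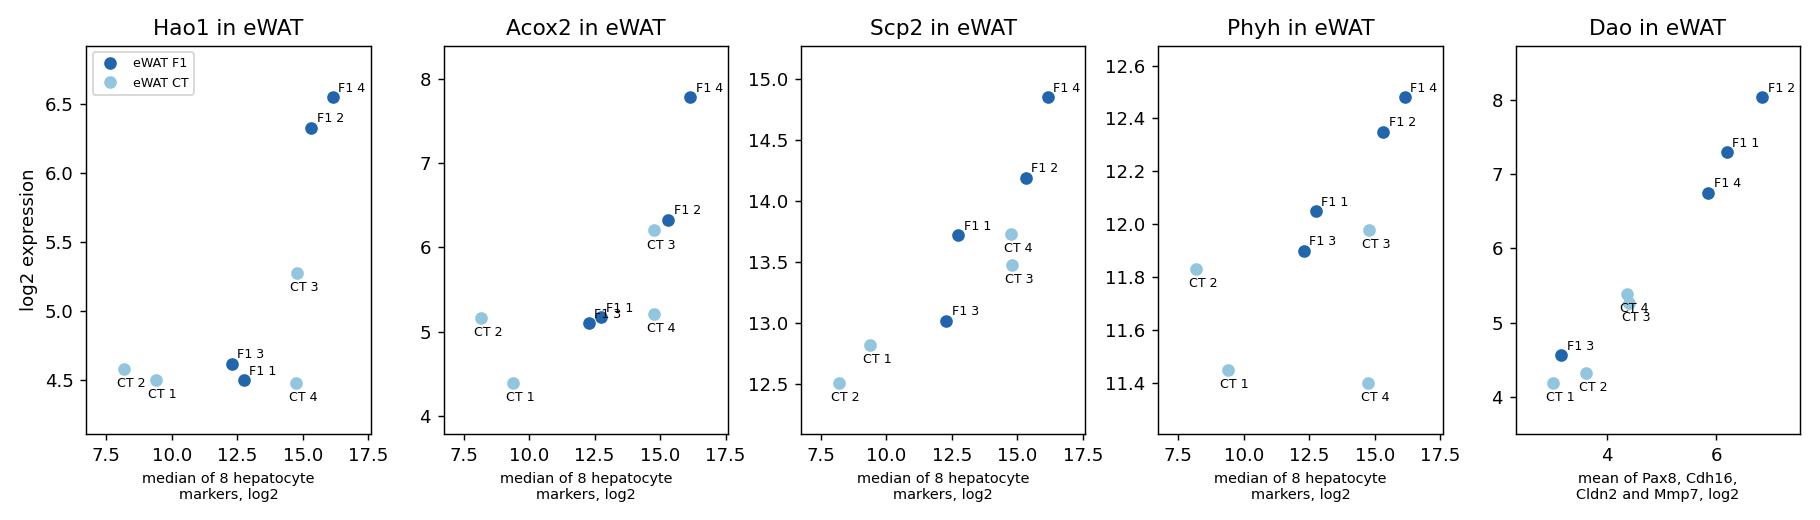
Log2 signal of Hao1, Acox2, Scp2 and Phyh in the 8 eWAT libraries against the median log2 signal of 8 hepatocyte markers, and of Dao against the mean log2 signal of Pax8, Cdh16, Cldn2 and Mmp7. Those epithelial genes were chosen after their values were seen. Points are libraries, coloured by group. The library of F1 mouse 4, with a hepatocyte median of 16.16, has the highest Hao1, Acox2, Scp2 and Phyh values, and F1 mice 1, 2 and 4 have the highest Dao values.

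The question of whether paternal obesity moved these genes differently in the 2 tissues was tested as the F1 effect in liver minus the F1 effect in eWAT, in 1 fit of all 16 libraries. Of 14657 genes, 12 (0.0819%) passed an adjusted p of 0.05 and 0 members did. At an unadjusted p under 0.05, 3 members passed, each with a negative value, a direction in which 4.97% of all genes passed. Values below 0 were found for 24 of 28 members, against 50.3% of all genes, with a median of -0.36 against 0.00 over all genes. The 24 include Cat, whose liver values were saturated, so that its value of -0.15 holds only its eWAT difference. Without the 4 hepatocyte-rich eWAT libraries, 22 of 28 lay below 0, with a median of -0.34. Without eWAT F1 mouse 1, 23 of 28 lay below 0, with a median of -0.28, and only Pex11a passed the unadjusted p. Shares of all genes were not counted without these libraries, where the medians over all genes were 0.0025 and 0.005 in turn. Pex11a, the gene of peroxisome division, had the smallest p, with a difference between effects of -1.08 ± 0.34 (SE) and an adjusted p of 0.317. Its F1 mean was the lower one in liver and the higher one in eWAT. Pex2, of the ubiquitin ligase, differed by -0.89 ± 0.38 (SE), with an adjusted p of 0.465. Dao, whose liver values lay close to 3.90, differed by -1.62 ± 0.71 (SE), with an adjusted p of 0.472, and Pxmp4 by -0.60 ± 0.32 (SE), with an adjusted p of 0.554. Dao passed when the library of eWAT F1 mouse 3 was left out, at -2.32 with an adjusted p of 0.0367 in limma. It passed under no other alternative. The F1 eWAT libraries kept there, of mice 1, 2 and 4, were those with high values of Pax8, Cdh16, Cldn2 and Mmp7. The part of such transcripts in this result was not tested.

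Liver and eWAT of CT mice were compared to describe the tissue pattern of the same genes. Of 14697 genes, 11079 passed an adjusted p of 0.05, most of them lower in liver. The deposited values were distributed differently in the tissues: the median difference over all genes was -0.84, and that of the members was 1.19. The 3 members that did not pass were Pex14, with 0.20 ± 0.17 (SE) and an adjusted p of 0.293, Pex2, with 0.61 ± 0.27 (SE) and 0.0604, and Pex10, with -0.53 ± 0.23 (SE) and 0.0605.

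Of the 5 oxidation genes, 4 were called higher in liver, against 17.9% of all genes. Acox2 averaged 15.11 ± 0.16 in CT liver and 5.24 ± 0.74 in CT eWAT (SD, n = 4 each), a difference of 9.87 ± 0.32 (SE) with an adjusted p of 9.17e-10. Scp2 was higher in liver by 6.31 ± 0.26 (SE), Hacl1 by 5.32 ± 0.19 (SE) and Phyh by 5.04 ± 0.19 (SE), with adjusted p-values of 4.77e-09, 1.76e-09 and 2.63e-09. The exception was Acox3, which was lower in liver, with a difference of -1.37 ± 0.17 (SE). Hao1, the glycolate oxidase, averaged 13.60 ± 0.40 in CT liver and 4.71 ± 0.38 in CT eWAT (SD, n = 4 each), a difference of 8.89 ± 0.25 (SE). Cat was 2.34-fold higher in liver on the deposited scale, where its liver values were saturated. Its call was lost when the libraries were quantile normalized together, so no bound on its size is given. The eWAT values of Acox2, Scp2 and Hao1 include the libraries with hepatocyte markers named above.

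Ether lipid genes went the other way, and 3 of 3 were called lower in liver, against 57.5% of all genes. Far1 averaged 6.24 ± 0.56 in CT liver and 11.72 ± 0.15 in CT eWAT (SD, n = 4 each), a difference of -5.48 ± 0.26 (SE) with an adjusted p of 1.42e-08. The Gnpat difference was -3.80 ± 0.17 (SE), a 13.9-fold lower signal in liver, and the Agps difference was -1.77 ± 0.29 (SE). The acyl-CoA transporters split. Abcd2 averaged 9.17 ± 0.61 in CT liver and 17.72 ± 0.22 in CT eWAT (SD, n = 4 each), a difference of -8.56 ± 0.29 (SE), while Abcd3 was higher in liver by 4.28 ± 0.20 (SE), or 19.5-fold. Pxmp2 was also higher in liver, by 2.34 ± 0.25 (SE), and so was Pxmp4, by 1.15 ± 0.21 (SE). Dao was counted among the 10 called lower, but its mean in CT liver, 3.88 ± 0.08, lay below the 3.90 under which a gene went untested in liver alone, against 4.79 ± 0.62 in CT eWAT (SD, n = 4 each), so no size is given.

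Of the 13 peroxins, 6 were called higher in liver (17.9% of all genes) and 4 lower (57.5% of all genes), with differences between -1.59 and 2.44. The import receptors and the receptor export and division genes were higher: Pex5 by 1.25 ± 0.19 (SE), Pex7 by 1.64 ± 0.19 (SE), Pex6 by 1.31 ± 0.17 (SE), Pex26 by 1.47 ± 0.26 (SE), Pex11a by 1.45 ± 0.19 (SE) and Pex11g by 2.44 ± 0.22 (SE). The membrane assembly genes and the docking gene Pex13 were lower, with differences of -1.59 ± 0.26 (SE) for Pex3, -0.86 ± 0.17 (SE) for Pex19, -0.42 ± 0.17 (SE) for Pex16 and -1.31 ± 0.33 (SE) for Pex13. The call of Pex16, at an adjusted p of 0.04, was lost when any 1 CT liver was left out, or eWAT of CT mouse 1 or 2. Once the libraries were quantile normalized together, the median gene differed by 0.02, the directions of Pex16 and Pex10 turned to 0.16 and 0.57 higher in liver, and the calls of Pex3, Pex19, Pex13, Acox3, Agps and Cat were lost. Pex14 and Pex2, which had not passed, passed there as higher in liver, at 0.96 and 1.92, with adjusted p-values of 0.000524 and 8.19e-05 in limma. The large differences of the oxidation and ether lipid genes Acox2, Scp2, Hacl1, Phyh, Far1 and Gnpat kept their calls and directions there.

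**Figure D4:**
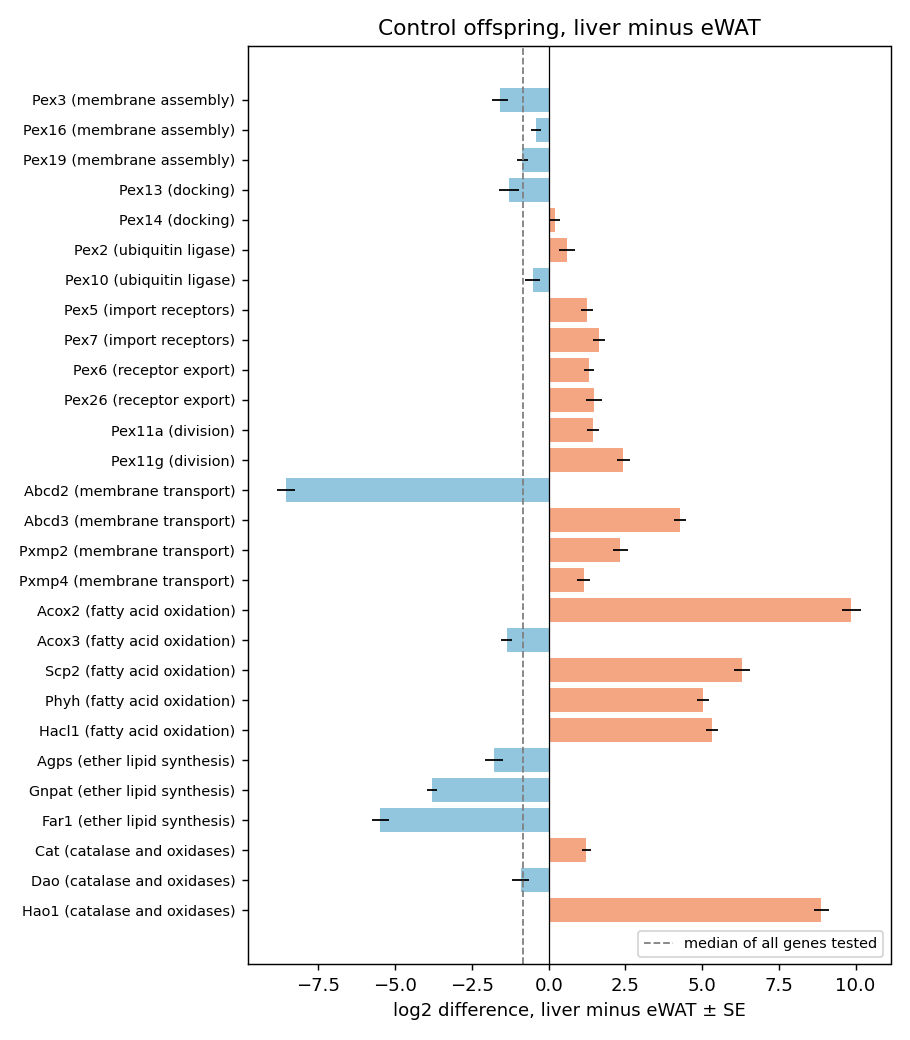
Difference in log2 signal between liver and eWAT of CT mice for each member; bars are differences of group means (n = 4 each), error bars are standard errors from limma, and the dashed line marks the median of all genes, -0.84. Acox2 (9.87) and Hao1 (8.89) stand at the upper end and Abcd2 (-8.56) and Far1 (-5.48) at the lower end, and the bar of Dao rests on liver values around 3.90.

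Other peroxisome genes and their regulators give the wider pathway. Of 48 listed peroxisome genes outside the set, 41 were on the array. In liver 0 of the 40 tested passed the adjusted p, against 0.156% of all genes. At an unadjusted p under 0.05, 1 was higher (4.46% of all genes) and 8 lower (4.66% of all genes), and 29 of 40 lay below 0 (50% of all genes). In eWAT 0 of 39 passed the adjusted p, against 0% of all genes. At an unadjusted p under 0.05, 5 were higher (4.97% of all genes) and 0 lower (5.02% of all genes). Of the 39, 33 lay above 0 (49.4% of all genes), or 27 without the 4 hepatocyte-rich libraries and 29 without eWAT F1 mouse 1. The share of all genes was not counted without those libraries. Acaa1b, a peroxisomal thiolase, had values of 12.61, 12.49, 11.85 and 12.72 in F1 livers, against 13.89, 14.26, 13.62 and 13.37 in CT livers. All F1 values of Acaa1b lay below all CT values, with a difference of -1.37 ± 0.25 (SE) and an adjusted p of 0.0834. Ehhadh, the bifunctional enzyme of peroxisomal beta-oxidation, had values of 15.22, 15.01, 14.44 and 15.16 in F1 livers, against 16.14, 16.70, 15.96 and 15.67 in CT livers. Its groups did not overlap either, and the difference was -1.16 ± 0.25 (SE), with an adjusted p of 0.155. Acot3, a peroxisomal acyl-CoA thioesterase, differed by -1.13 ± 0.23 (SE), with an adjusted p of 0.123. Acaa1b and Acot3 have near-identical neighbours in the genome, Acaa1a and the other Acot genes, and the probe sets may not separate them fully. Nudt7, which cleaves coenzyme A in peroxisomes, was the 1 gene in the other direction, with 0.89 ± 0.26 (SE) and an adjusted p of 0.324.

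Among the 6 listed regulators, Ppargc1b, a coactivator of nuclear receptors, had values of 10.03, 10.14, 11.30 and 10.32 in F1 livers, against 7.90, 8.49, 8.47 and 9.27 in CT livers. Every F1 liver lay above every CT liver, with a difference of 1.92 ± 0.34 (SE) and an adjusted p of 0.0753, and Rxra, the partner of PPARα on DNA, differed by 0.43 ± 0.15 (SE), with 0.414. With limma's trended and robust variances, Ppargc1b, Acaa1b and Ehhadh passed, with adjusted p-values of 0.00851, 0.00694 and 0.0193. Over all alternatives the adjusted p ranged from 0.00851 to 0.248 for Ppargc1b, from 0.00694 to 0.245 for Acaa1b and from 0.0193 to 0.32 for Ehhadh. In eWAT, Ppara, the gene of PPARα, had values of 8.96, 8.02, 8.50 and 8.63 in F1 mice, against 7.29, 6.85, 8.39 and 7.69 in CT mice. Only CT mouse 3 reached the F1 range of Ppara, and the difference was 0.97 ± 0.33 (SE), with an adjusted p of 0.412. It was 1.66 ± 0.30 (SE) without the 4 hepatocyte-rich libraries, which left F1 mice 1 and 3 against CT mice 1 and 2. The F1 libraries kept there still had higher hepatocyte medians, 12.75 and 12.29 against 9.38 and 8.18 in CT. Over all alternatives the Ppara difference ran from 0.72 to 1.88. The value of 1.88 came where CT mouse 2 was the only CT library left. Ppara was higher in CT liver than in CT eWAT, by 7.10 ± 0.31 (SE). The other genes of smallest p in eWAT were Nudt7, at 0.58 ± 0.19 (SE), Nr1h3, which encodes the oxysterol receptor LXRα, at 0.48 ± 0.16 (SE), Ech1, an enoyl-CoA isomerase, at 0.45 ± 0.16 (SE), Crat, the carnitine acetyltransferase, at 0.42 ± 0.16 (SE), and Ephx2, the soluble epoxide hydrolase, at 0.76 ± 0.30 (SE). Their adjusted p-values lay between 0.396 and 0.443. Without the 4 hepatocyte-rich libraries Ech1 was at 0.21 ± 0.24 (SE), Nudt7 at 0.58 ± 0.31 (SE), Nr1h3 at 0.44 ± 0.24 (SE), Crat at 0.57 ± 0.26 (SE) and Ephx2 at 0.91 ± 0.47 (SE). Nudt7 was at 0.30 when its probe sets were averaged. Ppara, Nudt7 and Ephx2 were all higher in CT liver than in CT eWAT. The part of hepatocyte transcripts in their eWAT differences was not tested beyond these values.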

How the data were processed

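The deposited values are log2 signals of 22206 Affymetrix probe sets, which the submitters' processing notes tie to RMA and to Transcriptome Analysis Console 4.0 by the authors. Total RNA of 16 samples, 150 ng each, was labelled with the WT PLUS kit, per the labels' protocols. No CEL files, background values or slide and scan records were used here, so array number limits the precision and no batch could be examined. Sorted values differed by at most 0.53 between libraries of 1 tissue and by 1.39 to 1.71 between tissues, which leaves liver and eWAT with different distributions. Libraries of 1 tissue correlated at 0.976 to 0.991, and replicates of a group shared at most 1.43% of values.

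The platform annotation gave 1 symbol to 19572 probe sets, several to 0 and none to 2634. For 55 of the symbols there were several probe sets, of which the brightest on average stood for the gene. Genes with a mean below the 25th percentile of the fitted libraries (3.90 in liver, 3.47 in eWAT) were left out, and all 28 members passed in every comparison. F1 was compared with CT by limma 3.58.1 in R 4.3.3, in each tissue alone. The difference of effects came from 1 fit of all 16 libraries, and liver was compared with eWAT within CT. P-values were adjusted over all genes tested by Benjamini-Hochberg. The procedure was tested on simulated data. The alternatives were the dim filter, quantile normalization, trended and robust variances, array weights, the replicate number as a block, averaged probe sets, percentile ranks, 1 fit of all libraries and leaving out libraries. The 2 that use hepatocyte transcripts were added after seeing the data.

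The members and gene lists were chosen with earlier results of these data known. By rule every member was named, members with the 4 smallest p-values and every called one were described in full, and up to 6 other peroxisome genes and regulators per tissue were taken by smallest p. Lists of other cell types gave medians in liver and eWAT libraries of 3.56 to 4.70 and 3.58 to 5.66 for skeletal muscle, 3.68 to 3.96 and 2.93 to 3.43 for the male tract (whose Svs2 and Svs4 were high in 1 eWAT library), 8.78 to 10.17 and 10.34 to 11.90 for macrophages, 10.25 to 11.10 and 13.23 to 14.00 for endothelium, 3.71 to 4.58 and 8.22 to 9.56 for mesothelium, and 7.18 to 8.88 and 16.24 to 17.12 for fibroblasts. Adipocyte genes gave 3.91 to 4.93 in liver, and exocrine pancreas genes 4.65 to 5.38 in eWAT.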

Additional observations from a re-analysis of the deposited data

Results flagged for a closer look

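Of 110 groups of 4 values tested for a value far from the other 3, 6 stood out by Dixon's criterion, and chance alone marks about 1 group in 20. Pex3, of membrane assembly, had a high value of 12.92 in eWAT of CT mouse 2, against 11.71 to 11.85 in the other CT mice. Pex13, of the docking site, had a low value of 9.18 in liver of CT mouse 2, against 10.33 to 10.42 in the other CT mice. In that liver the macrophage list was also highest, with a median of 10.17 against 8.78 to 9.49 in the other 7 livers. Pex7, an import receptor, had a low value of 7.78 in eWAT of CT mouse 4, against 8.23 to 8.32. Pex11g, of peroxisome division, had a low value of 5.12 in eWAT of F1 mouse 4, against 6.42 to 6.61. Abcd3, an acyl-CoA transporter, had a low value of 15.83 in liver of CT mouse 4, against 16.45 to 16.55. Hao1, the glycolate oxidase, had a high value of 5.28 in eWAT of CT mouse 3, against 4.48 to 4.58, and the hepatocyte list was also high in that library.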

How the results depend on the processing

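No member passed in liver or eWAT under any alternative, and none passed in the difference of effects except Dao without eWAT F1 mouse 3 (-2.32, adjusted p 0.0367, so 0 to 1 members over the single omissions). The F1 eWAT libraries kept without F1 mouse 3 were those with high values of the epithelial genes given with Dao. Counts over all genes moved more. The 23 liver calls became 74 with trended and robust variances, 51 in 1 fit of all libraries, 6 with the replicate block and 7 to 24 when 1 library was left out (7 without F1 mouse 3 or CT mouse 2, 8 without CT mouse 4, 10 without F1 mouse 2 or CT mouse 3). The 0 eWAT calls became 28 in 1 fit of all libraries and 0 to 1 when 1 library was left out (1 without F1 mouse 4 or CT mouse 4). The 12 calls in the difference of effects became 37 with trended and robust variances and 7 to 25 when 1 library was left out (25 without eWAT F1 mouse 3, 22 without liver F1 mouse 4, 7 without eWAT CT mouse 3). The setting without all libraries with foreign transcripts dropped those that stood apart for a list. It therefore kept eWAT F1 mouse 1, with its seminal vesicle transcripts. It leaves CT eWAT 1 library that is assumed to vary like the others, so its count is not given. The 12 calls became 168 without the 4 hepatocyte-rich libraries. Without those 4, Uox and Slc27a2, peroxisomal genes named after their values were seen, passed at -3.69 and -3.48, in libraries where hepatocyte markers still differed between F1 and CT. Members' medians stayed between -0.16 and -0.05 in liver, 0.12 and 0.29 in eWAT, and -0.39 and -0.28 for the difference of effects when 1 library was left out. Between tissues the members' median moved from 1.19 to 1.92 with quantile normalization. Pex16 and Pex10 reversed to 0.16 and 0.57 there, and to 0.60 and 4.36 percentile points by rank. The calls of Pex3, Pex19, Pex13, Acox3, Agps and Cat between tissues were lost under both of these scalings, and those of Pex19, Pxmp4 and Dao without all libraries with foreign transcripts. The call of Pex16 was lost without any 1 of the 4 CT livers, without eWAT CT mouse 1 or 2, with the replicate block and in 1 fit of all libraries, where that of Dao was lost too, Pex2 was gained without liver CT mouse 2 or eWAT CT mouse 3, and Pex10 without liver CT mouse 4 or eWAT CT mouse 2. Pex14 and Pex2 were gained with quantile normalization, at 0.96 and 1.92, and by rank, at 4.28 and 14.13 percentile points. Between tissues 20 to 26 members were called over the alternatives. The replicate numbers were not taken to pair the samples. To look for pairing, each gene's group mean was subtracted, and the deviations left in each library were correlated. Whole libraries of liver and eWAT correlated at 0.751 to 0.815. Deviations of same-numbered mice correlated at 0.01, -0.05, 0.05 and -0.02 between F1 and CT livers and at 0.12, -0.19, -0.26 and 0.18 in eWAT. Between liver and eWAT of 1 group these deviations correlated at 0.0097 to 0.0449, all under 0.1. By these deviations 7 of 8 liver libraries correlated best with the eWAT library of their own number, a hint from the data and not from the labels. The block changed no member's call between F1 and CT or in the difference of effects, and left 24 members called between tissues. In the difference of effects it joined F1 and CT libraries of the same number. A pairing of liver and eWAT within single mice was therefore not fitted there. The causes of these shifts were not tested.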
